A study of Mus musculus with 9 samples.

Results

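The miR-144 and miR-451a cluster is a pair of neighbouring microRNA (miRNA) hairpins, and its mature products were followed here in the left ventricle of mice that carry an Nrf2 transgene. The members were the 3 rows named mmu-miR-144-5p, mmu-miR-144-3p and mmu-miR-451a (mmu for mouse, left out below), out of 621 mature miRNAs in the count table, and all 3 passed the filter on low counts that left 509 rows for testing. MicroRNA sequencing was done on total RNA of left ventricles of C57BL/6J males aged 6 months, in 3 groups of 3 libraries. One group was non-transgenic (NTG), one had the genotype CaNrf2-Low, called TG-Low here, and one the genotype CaNrf2-High, called TG-High. No other allele or agent is given for any of them. The labels do not give the promoter of the transgene, the cells that express it, whether blood was flushed from the hearts, or whether each library came from its own animal. The p-values therefore measure the spread among these libraries, part of which may be technical.

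The cluster is known as a gene of red cell precursors, where the factor GATA1 switches it on and its products accumulate as the cells mature. miR-451a is known for being made without Dicer: its short hairpin is cut by Ago2 and trimmed, so that the mature miRNA runs from the stem into the loop. miR-144-3p has been described in human red cells as repressing the mRNA of NRF2, and the cluster has also been described in heart muscle cells of mice, where it was linked to protection from ischaemic injury. Nrf2, encoded by Nfe2l2, is the transcription factor that switches on antioxidant and detoxification genes.

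The mature sequences are shown because the 3 miRNAs come from 1 locus but carry 3 different seeds, the bases 2 to 8 that choose target mRNAs, printed in capitals (RefSeq, GRCm38.p6, 5′ to 3′).
miR-144-5p: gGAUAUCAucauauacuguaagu
miR-144-3p: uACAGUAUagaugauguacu
miR-451a: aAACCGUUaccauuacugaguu
The 2 hairpins are shown with the mature bases in capitals, since the arms of the first one are read separately and the second one gives 1 product that runs through its loop.
Mir144: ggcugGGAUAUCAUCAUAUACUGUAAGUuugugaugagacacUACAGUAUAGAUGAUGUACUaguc
Mir451a: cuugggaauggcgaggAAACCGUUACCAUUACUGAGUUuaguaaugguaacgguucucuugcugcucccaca
In the Mir144 hairpin of 66 bases, miR-144-5p takes bases 6 to 28 and miR-144-3p bases 43 to 62. In the Mir451a hairpin of 72 bases, the mature miRNA takes bases 17 to 38.

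Both hairpins lie on the plus strand of chromosome 11 in GRCm38, Mir144 at chr11:78073005-78073070 and Mir451a at chr11:78073170-78073241, with 99 bases between them. In the GENCODE M21 annotation they overlap no exon or intron of a protein-coding gene, and the nearest one, Eral1, lies on the minus strand from 78073376 to 78080383. Another hairpin, Mir451b, has the same coordinates as Mir451a on the minus strand. Its mature miRNA lies 11 bases beyond that of miR-451a, and the 2 mature positions share 0 bases. Of the measured rows with a RefSeq sequence (544 of 621), 0 shared bases 2 to 8 with a member. One row, miR-101a-3p from chromosome 4, shared bases 2 to 7 with miR-144-3p and is shown with its own seed in capitals.
miR-101a-3p: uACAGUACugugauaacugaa

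All 3 members were lower in TG-High hearts than in NTG hearts, by 4.38-fold for miR-144-5p, 3.55-fold for miR-451a and 2.87-fold for miR-144-3p. In TG-Low hearts their means lay between those of the other groups, and 0 of the 3 passed the edgeR test against NTG (DESeq2 passed 1, and 1 had an unadjusted p under 0.05 in edgeR). Over all 509 tested rows, 8 passed by edgeR, 29 passed by DESeq2, and 88 had an unadjusted p under 0.05 in edgeR. miR-451a and miR-144-3p also passed in TG-High against TG-Low, although that call was lost when any 1 of 5 of the 6 libraries was left out. Levels below are in CPM, the count per megaread of the library's total, with library sizes adjusted by the TMM method (trimmed mean of M values). They are not corrected for differences in how well a miRNA is captured in a library. In the library's total, rows with nearly the same levels, such as miR-126a-3p and miR-126b-5p, are both counted.

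miR-144-5p, the less counted arm of its hairpin, was at 151, 108 and 151 CPM in NTG replicates 0, 1 and 2. It was at 43.2, 98.4 and 88.3 CPM in TG-Low and at 23.3, 37.7 and 32.6 CPM in TG-High. Every TG-Low library lay below every NTG library, and every TG-High library below every TG-Low library. Over all 509 tested rows the first held in 10.4% and the second in 9.04%, and the share with both was not counted. Every TG-High library lay below every NTG library in 19.3% of rows. The raw counts ran from 119 in TG-High replicate 2 to 1464 in NTG replicate 2. The smallest of these was 0.00329% of the counts of its library (95% exact Clopper-Pearson interval from 0.00272% to 0.00393%, which covers counting error only).

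miR-144-3p, the arm described as repressing human NRF2 mRNA, was at 454, 405 and 421 CPM in the NTG libraries, a spread of 5.92% of the mean (coefficient of variation). It was at 219, 451 and 368 CPM in TG-Low and at 131, 161 and 153 CPM in TG-High. TG-Low replicate 1 lay inside the NTG range and TG-Low replicate 0 far below it, so the TG-Low spread was 34.0% of the mean. The TG-High libraries lay below all others, with a spread of 10.5%. Of the 509 tested rows, 19.3% had TG-High below NTG and 9.04% had it below TG-Low, and the share with both was not counted.

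miR-451a, the most counted of the 3, was at 1492, 1040 and 1841 CPM in the NTG libraries. It was at 664, 1241 and 1195 CPM in TG-Low and at 361, 445 and 426 CPM in TG-High. TG-Low replicates 1 and 2 lay inside the NTG range, while the 3 TG-High libraries lay below all others. Over all 509 tested rows, TG-High lay below NTG in 19.3% and below TG-Low in 9.04%, and the share with both was not counted. It ranked between 43 and 53 among the 621 rows of each NTG library and between 70 and 79 in those of TG-High. TG-Low replicate 0 held the lowest TG-Low value of all 3 members, TG-High replicate 0 the lowest TG-High value and NTG replicate 1 the lowest NTG value.

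**Figure D1:**
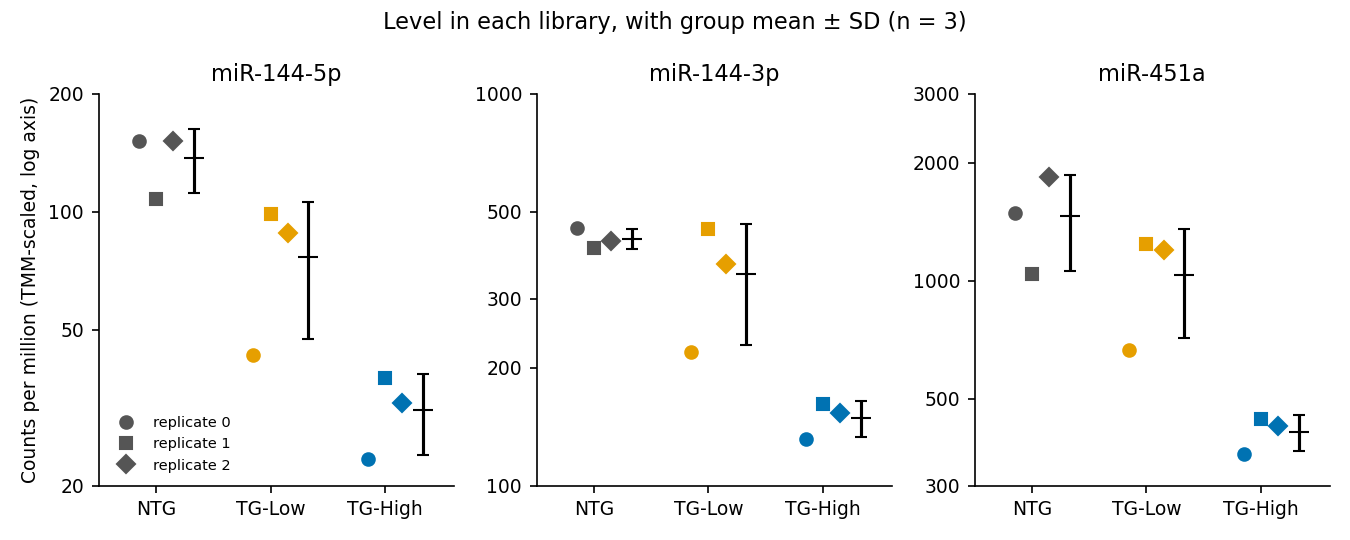
CPM (log axis, 1 decade in each panel) of the 3 members in each of the 9 libraries, with the group mean ± SD (n = 3) in black. The TG-High points lie below all others in every panel, and TG-Low replicate 0 (orange circle) lies below the other TG-Low points. Of all 509 tested rows, 19.3% have TG-High below NTG and 9.04% have it below TG-Low.

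Total counts ran from 3620465 in TG-High replicate 2 to 11695744 in TG-High replicate 1, with the other libraries between 7036920 and 10132597. The 5 most counted rows held 50.6% to 55.8% of the summed counts of a library. Any pair of libraries of 1 group differed by far more than sampling noise (the chi-square statistic divided by its degrees of freedom was 44.5 to 456), and each library was kept as a replicate. Of the miRNAs that define heart muscle, miR-208a-3p, from the Myh6 gene, was well counted, at 2449 ± 23.7 CPM in NTG (SD, n = 3). miR-1a-3p and miR-133a-3p, which also define it and each come from more than 1 hairpin gene, were at only 84.2 ± 29.9 and 1.26 ± 0.39 CPM in NTG, and miR-16-5p, another miRNA with several hairpin genes, at 30.3 ± 3.31 CPM. Whether reads of such miRNAs were counted in full was not tested, and each member comes from 1 hairpin in the RefSeq table.

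The comparison of TG-High with NTG asks how the cluster differs in the CaNrf2-High genotype. miR-144-5p fell from 137 ± 25.1 to 31.2 ± 7.28 CPM (SD, 3 libraries each), or by log2 -2.13 ± 0.30 (SE; edgeR's quasi-likelihood test, Benjamini-Hochberg adjusted p = 0.00122). miR-144-3p fell from 426 ± 25.3 to 149 ± 15.6 CPM (log2 fold change -1.52 ± 0.23, adjusted p = 0.00155). miR-451a fell from 1458 ± 402 to 411 ± 43.8 CPM (log2 fold change -1.83 ± 0.26, 95% interval -2.39 to -1.27, edgeR adjusted p = 0.00122). In this comparison 93 of 509 rows passed (18.3%), 48 of them lower (9.43%), and the groups did not overlap in 39.3% of rows, with TG-High lower in 19.3%. All 3 calls held in each of 6 refits with 1 library left out, with log2 fold changes from -2.34 to -1.90 for miR-144-5p, -2.04 to -1.61 for miR-451a and -1.63 to -1.38 for miR-144-3p.

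Ordered by log2 fold change in TG-High against NTG, miR-144-5p was in place 3, miR-451a in place 4 and miR-144-3p in place 7 from the most negative of 509. The other rows among the most negative 7, named after their values were seen, were less counted. They were miR-881-3p at a mean of 4.03 CPM, miR-200c-3p at 25.8, miR-141-3p at 3.27 and miR-6238 at 1.24, against 81.6, 967 and 307 CPM for miR-144-5p, miR-451a and miR-144-3p. The median log2 fold change of all 509 rows was -0.01.

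**Figure D2:**
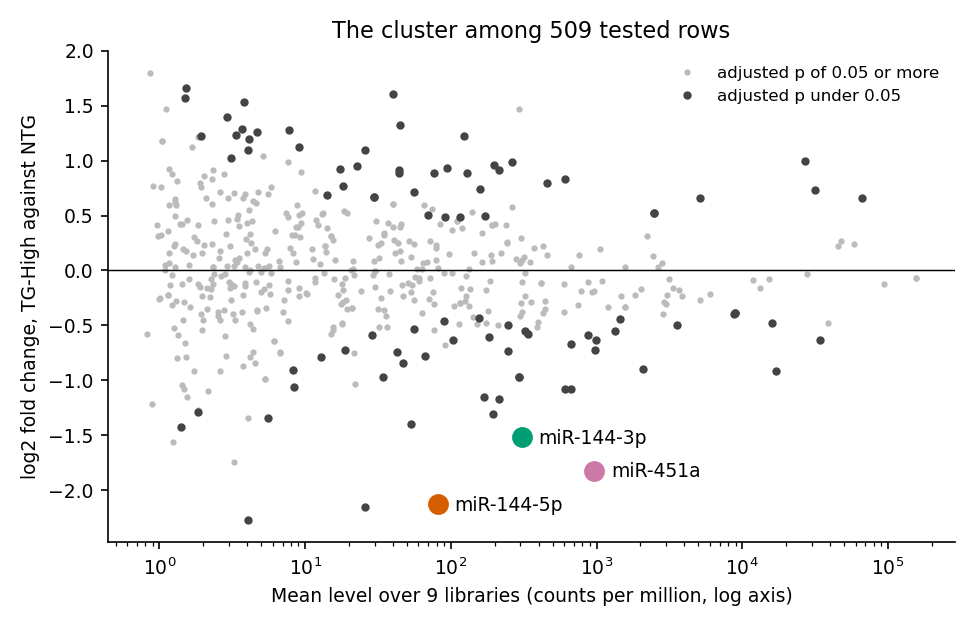
log2 fold change in TG-High against NTG (vertical axis) by mean CPM over the 9 libraries (log axis) for the 509 tested rows, with dark points for rows past an adjusted p of 0.05. The 3 coloured members lie at the lower edge, at -2.13, -1.83 and -1.52.

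TG-Low against NTG asks the same for the CaNrf2-Low genotype. The log2 fold changes were -0.84 ± 0.29 for miR-144-5p (SE; edgeR adjusted p = 0.163), -0.50 ± 0.25 for miR-451a (adjusted p = 0.310) and -0.30 ± 0.22 for miR-144-3p (adjusted p = 0.473). In this comparison 8 of 509 rows passed (1.57%), 1 of them lower (0.196%). The 95% intervals ran from -1.47 to -0.20 for miR-144-5p, from -1.04 to 0.05 for miR-451a and from -0.79 to 0.18 for miR-144-3p, so falls of 2-fold were inside the first 2 of these. Without TG-Low replicate 0 the values, in the order miR-144-5p, miR-451a and miR-144-3p, were -0.54, -0.24 and -0.05. Without TG-Low replicate 1 they were -1.04, -0.63 and -0.53, and without NTG replicate 2 that of miR-451a was -0.32. None of the 3 passed in any of the 6 edgeR refits with 1 library left out, where the adjusted p was at least 0.105. By DESeq2's Wald test miR-144-5p had an adjusted p of 0.0499. Its TG-Low and NTG libraries did not overlap, as in 21.8% of rows, with TG-Low lower in 10.4%.

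TG-High against TG-Low compares the 2 genotypes and is also the test of whether their changes against NTG differ. For miR-451a the TG-High mean of 411 ± 43.8 CPM stood against a TG-Low mean of 1034 ± 321 CPM (3 libraries each), or log2 -1.33 ± 0.25 (SE; edgeR adjusted p = 0.0254). miR-144-3p was at 149 ± 15.6 and 346 ± 118 CPM (-1.22 ± 0.22, adjusted p = 0.0254), and miR-144-5p at 31.2 ± 7.28 and 76.6 ± 29.4 CPM (-1.29 ± 0.30, adjusted p = 0.0688). Only 7 of 509 rows passed (1.38%), 6 of them lower (1.18%), and 2 of these were miR-451a and miR-144-3p. The groups did not overlap for any of the 3, as in 15.7% of rows, with TG-High lower in 9.04%.

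The calls of that comparison rested on all libraries but 1. With TG-Low replicate 0 left out, all 3 members passed, at adjusted p values of 0.00197 for miR-144-3p, 0.00442 for miR-451a and 0.00876 for miR-144-5p. Without TG-Low replicate 1 the adjusted p was 0.0541 for miR-144-3p and 0.0615 for miR-451a, and without TG-Low replicate 2 it was 0.0778 for both. Without TG-High replicate 0, 1 or 2 it was 0.227, 0.0746 and 0.136 for both. The log2 fold changes stayed negative, from -1.54 to -1.01 for these 2 miRNAs.

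Both lines together against NTG is the submitters' own comparison. Over the 6 transgenic libraries miR-144-5p was at 23.3 to 98.4 CPM with a median of 40.4, all below the lowest NTG library, as in 9.23% of rows. Counting both directions, the groups did not overlap in 17.3% of rows. The log2 fold change of miR-144-5p was -1.34 ± 0.38 (SE; edgeR adjusted p = 0.0510), and in the authors' deposited table it is -1.34 with an adjusted p of 0.0135. miR-451a, at 361 to 1241 CPM with a median of 555, had -1.01 ± 0.38 (edgeR adjusted p = 0.106), and miR-144-3p, at 131 to 451 CPM with a median of 190, had -0.79 ± 0.35 (adjusted p = 0.148). By edgeR 44 of 509 rows passed (8.64%), 20 of them lower (3.93%). Of the members 0 passed, 3 had an unadjusted p under 0.05, and 1, miR-144-5p, passed by DESeq2. Over all 509 rows, 157 had an unadjusted p under 0.05 in edgeR and 75 passed by DESeq2. The authors' deposited table calls 83 of 621 rows (13.4%), and in it miR-451a has an adjusted p of 0.0632 and miR-144-3p 0.119. Without TG-Low replicate 1 or 2, edgeR's adjusted p of miR-144-5p was 0.0294 and 0.0162, and without TG-Low replicate 2 that of miR-451a was 0.0367.

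**Figure D3:**
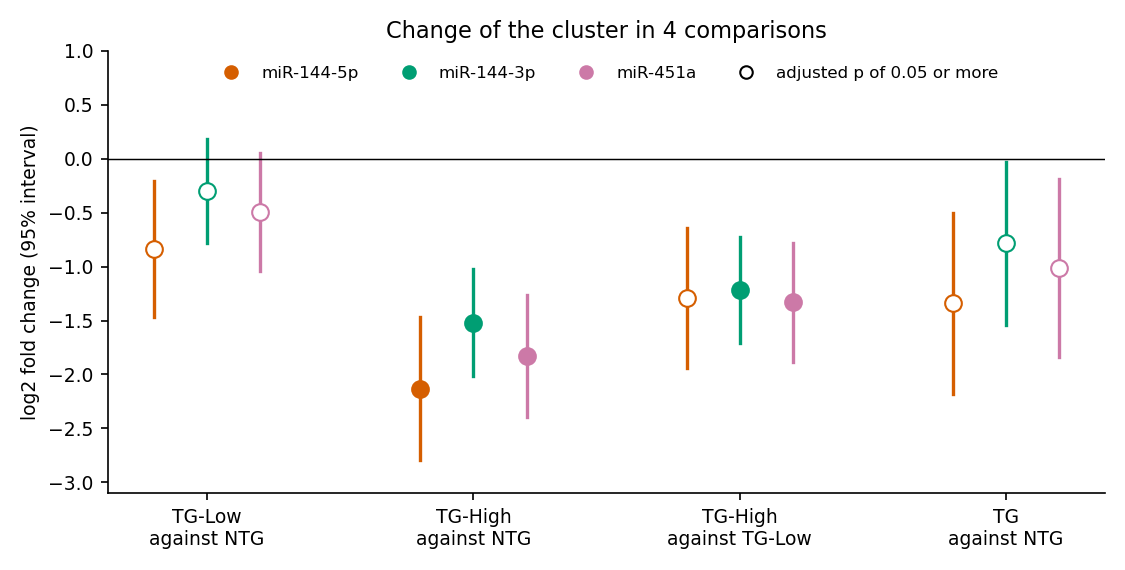
log2 fold change with its 95% interval (edgeR) of each member in 4 comparisons, filled where the adjusted p is under 0.05. All 12 values are negative. The members are filled in TG-High against NTG, and miR-144-3p and miR-451a in TG-High against TG-Low.

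Whether the 3 products moved in step was followed by ratios of their counts, in which library depth cancels. For each read of miR-144-3p there were 2.75, 2.75 and 2.78 reads of miR-451a in the 3 TG-High libraries. This ratio was 3.04, 2.75 and 3.25 in TG-Low and 3.28, 2.57 and 4.38 in NTG. The TG-High libraries were thus nearly equal in this ratio (SD of the log2 ratio 0.0090, n = 3, against 0.12 in TG-Low and 0.38 in NTG). The mean log2 ratio was 1.53 ± 0.10 in the 6 transgenic libraries and 1.74 ± 0.38 in NTG (exact permutation test, two-sided, p = 0.310, adjusted p = 0.464 over 6 ratio comparisons). The difference of -0.21 was -0.40 without NTG replicate 1 and -0.012 without NTG replicate 2.

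The mean ratio of the 2 arms of the Mir144 hairpin was lower in transgenic libraries, but the difference did not pass after adjustment. For each read of miR-144-3p there were 0.333, 0.267 and 0.360 reads of miR-144-5p in NTG, 0.197, 0.218 and 0.240 in TG-Low and 0.178, 0.233 and 0.213 in TG-High. All 6 transgenic libraries lay below all 3 NTG libraries. How often the arm ratios of other hairpins do so was not counted. The mean log2 ratio was -2.23 ± 0.16 in transgenic and -1.65 ± 0.23 in NTG libraries (SD; exact permutation test, two-sided, p = 0.0238, the smallest that 6 libraries against 3 allow, adjusted p = 0.143 over 6 ratio comparisons). TG-High and TG-Low overlapped, with means of -2.27 ± 0.20 and -2.20 ± 0.14 (exact p = 0.600, where 3 against 3 cannot go below 0.1).

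miR-451a counted against miR-144-5p gave 9.86, 9.64 and 12.2 in NTG, 15.4, 12.6 and 13.5 in TG-Low and 15.5, 11.8 and 13.1 in TG-High. The NTG range overlapped the lowest transgenic library. The mean log2 ratio was 3.76 ± 0.16 in transgenic and 3.39 ± 0.18 in NTG libraries (exact permutation p = 0.0476, adjusted p = 0.143). None of the 6 ratio comparisons passed after adjustment.

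**Figure D4:**
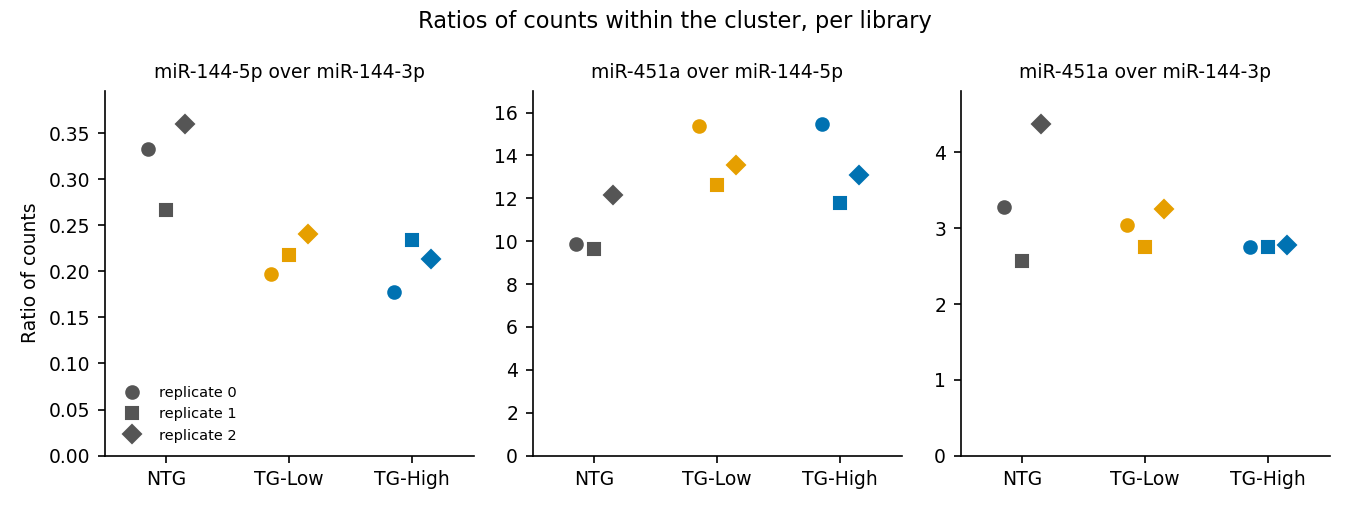
Ratio of counts (linear axes from 0) of each pair of members in each of the 9 libraries. The arm ratio on the left is 0.267 to 0.360 in NTG and 0.178 to 0.240 in the transgenic libraries, and the ratio on the right is 2.75 to 2.78 in TG-High.

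miR-451b, named for the same locus, had 6, 3 and 5 counts in the NTG libraries and is listed at 0 in all 6 transgenic libraries. Of the 621 rows, 35 share this pattern, none of them with more than 11 counts in an NTG library. Of 59 rows at 0 in all 3 libraries of at least 1 group, 47 had a count in every library of each other group. Rows with at least 1 count numbered 613 to 618 in the NTG libraries and 564 to 579 in the transgenic libraries. Whether these zeros are sampled counts or were set by a step of the processing was not tested, so no limit is drawn from them. No fold was computed here for miR-451b, whose mature position does not overlap that of miR-451a. In the authors' deposited table, for both lines against NTG, its log2 fold change is -4.50 with an adjusted p of 0.0299. That value rests on the same zeros.

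miR-101a-3p, the row that shares bases 2 to 7 with miR-144-3p, was far more counted, at a mean of 8730 CPM over the 9 libraries. Its log2 fold change was -0.39 in TG-High (edgeR adjusted p = 0.0231) and -0.21 in TG-Low (adjusted p = 0.302).

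Other miRNAs described in red cells gave 19 rows, of which 3 fell, 2 rose and 14 did not pass in TG-High against NTG, with a median log2 fold change of -0.12, against -0.01 for all tested rows. Those that fell were miR-185-5p (-0.90, edgeR adjusted p = 0.00771), miR-92a-3p (-0.72, adjusted p = 0.00277) and miR-25-3p (-0.63, adjusted p = 0.0122), of which the last 2 belong to clusters that promote cell division. Those that rose were miR-96-5p (1.29, adjusted p = 0.0144) and miR-16-1-3p (0.51, adjusted p = 0.0409). miR-486b-5p, of the hairpin that red cells and muscle both express, averaged 458 ± 111 CPM across the NTG libraries, 362 ± 216 across TG-Low and 423 ± 131 across TG-High (SD). Its log2 fold change in TG-High was -0.12 (edgeR adjusted p = 0.871). The rows of miR-486a mirror those of miR-486b with counts that differ by at most 4 in a library, so they are 1 measurement under 2 names. They enter the 19 rows, their median and their sum under both names. Over all 509 rows, 18.3% passed in TG-High against NTG and 9.43% passed as lower.

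The summed level of these 19 rows ran from 5816 to 7340 CPM in NTG libraries, from 4630 to 6144 in those of TG-Low and from 4015 to 4504 in those of TG-High, and 0 of them were at 0 in any library. The 3 rows that fell made up most of this sum, with a mean of 5209 CPM in NTG, 3897 in TG-Low and 3025 in TG-High. The other 16 summed to means of 1341, 1369 and 1302 CPM, with miR-486 entered under both names. In NTG its rows were at 458 CPM (miR-486a-3p and miR-486b-5p) and 92.7 CPM (miR-486a-5p and miR-486b-3p) each. Within the transgenic groups the sum did not rank the libraries as the members did. It was highest in TG-Low replicate 0 (6144 CPM) and TG-High replicate 0 (4504 CPM), which held the lowest member values of their groups. In both libraries the other 16 rows were at the highest of their group, 2318 and 1551 CPM. The 3 rows that fell were at the lowest of TG-High in TG-High replicate 0 (2953 CPM). In TG-Low replicate 0 they were not at the highest of TG-Low (4385 CPM). The part of the 19 rows in the result was not tested. In bulk tissue, fewer cells of a type and less RNA per cell cannot be told apart.

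Among 10 leukocyte rows, miR-150-5p and miR-150-3p of lymphocytes and miR-155-5p of activated immune cells fell, the myeloid miR-223-5p rose, and 6 did not pass in TG-High against NTG (median log2 fold change -0.17). Their log2 fold changes were -1.08, -1.34, -1.17 and 0.93. Of all 509 tested rows, 18.3% passed in this comparison and 9.43% passed as lower. The most counted row of the list, miR-146a-5p, had -0.31 (edgeR adjusted p = 0.362). miR-142a-3p, of white blood cells, had 0.41 (adjusted p = 0.268), and its mirrored row miR-142b holds the same counts. Both enter the count of rows, the median and the sum. Summed, the list ran from 2529 to 2765 CPM across NTG libraries, from 2005 to 2885 across TG-Low and from 1953 to 2224 across TG-High. Its rows were above 0 in every library, and its part in the result was not tested.

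Of 8 rows of endothelium and platelets, 3 did not pass and 5 fell in TG-High against NTG by edgeR (median -0.50), against 3 called by DESeq2. Those that fell by edgeR were miR-221-3p (-1.08), miR-221-5p (-0.97), miR-222-3p (-0.61), miR-126a-5p (-0.39) and miR-126b-3p (-0.39). The rows of miR-126a-5p and miR-126b-3p had nearly the same levels. The most counted of the 8, miR-126a-3p and miR-126b-5p, also with nearly the same levels, each had -0.07. Over all 509 tested rows, 18.3% passed in TG-High against NTG by edgeR, 9.43% passed as lower, and DESeq2 called 98 rows. The summed level of the 8 rows overlapped between groups, at 299611 to 382146 CPM in NTG, 311137 to 322660 in TG-High and 284277 to 401804 in TG-Low. These near-equal rows of miR-126 enter the counts of rows, the median and this sum under both names. Whether they hold the same reads was not tested. In NTG, miR-126a-3p was at 157988 CPM and miR-126b-5p at 157992 CPM. Of 10 tested heart muscle rows miR-499-5p, from the myosin gene Myh7b, fell (-0.92) and 9 did not pass (median 0.10). Summed over the heart muscle list, levels ran from 22666 to 26623 CPM across NTG libraries, from 19633 to 23344 across TG-Low and from 13195 to 16868 across TG-High, and miR-499-5p alone had a mean of 17002 CPM over the 9 libraries. Of 8 fibroblast and smooth muscle rows, miR-214-5p rose (0.74), miR-145a-3p fell (-0.55) and 6 did not pass, with miR-143-3p, the most counted, at -0.12. Their summed level overlapped, at 83356 to 106946 CPM in NTG and 83484 to 96511 in TG-High. The part of these lists in the result was not tested.

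miRNAs other than miR-144 that have been described as repressing Nfe2l2 or its inhibitor Keap1 gave 18 tested rows. Of these, miR-155-5p fell (-1.17, edgeR adjusted p = 0.00117) and 17 did not pass in TG-High against NTG, with a median of -0.17, while DESeq2 called 3. Of all 509 tested rows, edgeR called 93 (18.3%) and DESeq2 98. The most counted, miR-27a-3p, had -0.16 (adjusted p = 0.496). Their summed level overlapped, at 13767 to 17390 CPM in NTG and 12394 to 15406 in TG-High, and 1 row, miR-200a-5p, is listed at 0 in all 6 transgenic libraries. In TG-Low against NTG, 0 of the 69 different rows of the 6 lists passed edgeR's test, 12 had an unadjusted p under 0.05, and 5 passed by DESeq2. Over all 509 tested rows of that comparison, 8 passed edgeR's test, 88 had an unadjusted p under 0.05, and 29 passed by DESeq2.

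**Figure D5:**
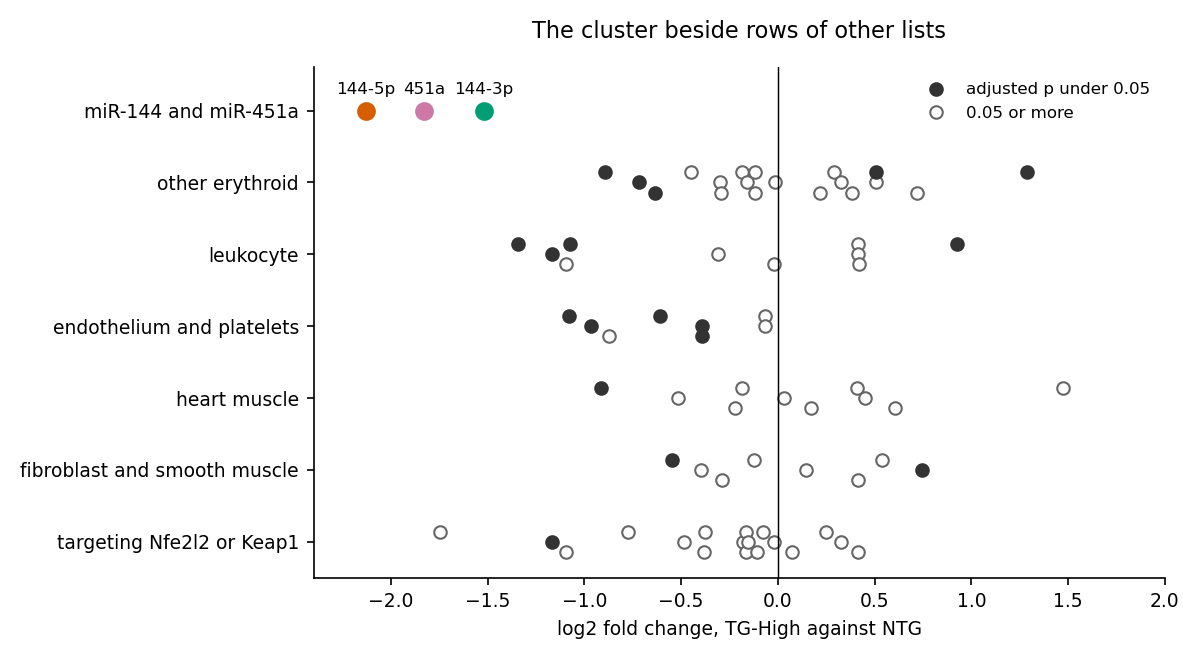
log2 fold change in TG-High against NTG of the 3 members and of the tested rows of 6 lists (1 point a row, spread vertically for sight), filled where the edgeR adjusted p is under 0.05. The members lie at -2.13, -1.83 and -1.52, and the other erythroid rows run from -0.90 to 1.29.

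The rows whose log2 CPM was most like that of the members over the 9 libraries, by Pearson's r, were largely shared between them. miR-191-5p and miR-107-3p were among the most alike 5 of all 3 members, at r of 0.95 and 0.89 for miR-144-3p, 0.93 and 0.94 for miR-144-5p, and 0.94 and 0.94 for miR-451a. miR-150-3p was also among them for all 3 (0.86, 0.89 and 0.90). let-7d-5p was among them for both arms of miR-144 (0.88 and 0.93), miR-335-5p for miR-144-3p and miR-451a (0.87 and 0.90), let-7c-5p for miR-144-5p (0.88) and miR-499-5p for miR-451a (0.90). These values describe 9 libraries in 3 groups, so libraries of 1 group share a genotype.

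In TG-High against NTG the changes of these rows ran from -0.27 to -1.34. miR-335-5p, from an intron of the imprinted gene Mest, had a log2 fold change of -1.31 in TG-High against NTG (edgeR adjusted p = 0.00155), and miR-150-3p -1.34 (adjusted p = 0.0103). miR-191-5p had -0.27 (adjusted p = 0.0668) and miR-107-3p -0.38 (adjusted p = 0.0972). When each library was set against its own group mean, miR-107-3p had r of 0.94 with miR-451a, 0.92 with miR-144-5p and 0.76 with miR-144-3p. let-7d-5p had r of 0.90 with miR-144-3p and 0.73 with miR-144-5p, and miR-191-5p had r of 0.51 to 0.57 with the 3 members. miR-335-5p had r of 0.35 with miR-451a and 0.055 with miR-144-3p. These rows were picked by their likeness over the same 9 libraries, so the values are no independent support for it.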

How the data were processed

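The authors' deposited table holds a raw read count of each of 621 mature miRNAs in 9 libraries, per the file headers, not normalized. Per the file headers, the authors also gave a mean normalized signal for each miRNA. For the 6 transgenic libraries set against NTG, the deposited columns give a log2 fold change and standard error, a test score, and p-value columns. Build mm10 (GRCm38), DESeq2 1.18.1, SAMtools, Novoalign, Trim Galore 0.4.0 and bcl2fastq 1.8.4 are listed in the submitters' processing notes. Per the labels' protocols, RNA came from frozen tissue by Trizol. The counter, its strand setting and the miRNA set were not given in the sources used here. Thus reads of rows with several hairpin copies or a mirrored partner cannot be assigned.

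Counts were tested with edgeR 4.0.16 (limma 3.58.1, R 4.3.3): quasi-likelihood test, TMM scaling, filterByExpr with a minimum count of 10 (509 rows kept, 112 left out), Benjamini-Hochberg adjustment over all tested rows and a threshold of 0.05. TG against NTG used 2 groups, the others a 3-group model over all 9 libraries. Log2 CPM used a prior count of 2, and ratios of members used counts plus 0.5 with exact permutation tests. The fits and permutation tests were tested on simulated data. Alternatives were total counts, no filter, the Wald test of DESeq2 1.42.0, its size factors, leaving out the 5 most abundant rows or each library, the replicate number as a block, and 2 added in ratios.

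Members, lists and tests were chosen with earlier results of these data known. Named were the members, miR-451b, rows sharing a seed, the 5 rows most like each member, and list rows that passed in TG-High or were the most abundant of their list; other names were chosen after values were seen. Sequences come from RefSeq (GRCm38.p6), matched by miRNA name, and figures used Python 3.11.15.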

Additional observations from a re-analysis of the deposited data

Results flagged for a closer look

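The changes of miR-451a and miR-144-3p against NTG differed between the 2 genotypes. The log2 difference of TG-High from TG-Low, in which the NTG term cancels, was -1.33 for miR-451a and -1.22 for miR-144-3p (edgeR adjusted p = 0.0254 each). All 3 TG-High libraries lay below all 3 TG-Low libraries for both, as in 9.04% of tested rows. In this comparison 7 of 509 rows passed (1.38%). Both calls were lost without any 1 of TG-Low replicates 1 and 2 or the TG-High libraries, at adjusted p values up to 0.227.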

How the results depend on the processing

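All 3 members kept their calls in TG-High against NTG under the 6 other settings and with each library left out. In TG-High against TG-Low, miR-144-3p was at -1.15 (edgeR adjusted p = 0.0511) with total counts, and left-out libraries gave -1.43 to -1.01 (miR-144-3p), -1.54 to -1.16 (miR-451a) and -1.55 to -1.08 (miR-144-5p). miR-144-5p passed there with no filter (-1.28, adjusted p = 0.0305) and by DESeq2 (-1.29, 0.00119). In TG against NTG it passed with total counts (-1.38, 0.0434), no filter (-1.34, 0.0447) and DESeq2 (-1.35, 0.0106), and left-out libraries gave -1.60 to -1.16, and -1.23 to -0.83 for miR-451a. In TG-Low against NTG it passed by DESeq2 (-0.85, 0.0499).

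Counts of called rows moved in TG-Low against NTG (8) to 21 with no filter, 29 by DESeq2, 0 without TG-Low replicate 1 (edgeR; 67 at an unadjusted p under 0.05, DESeq2 not run) and 18 without TG-Low replicate 2. In TG-High against TG-Low (7) they were 25 with no filter, 12 by DESeq2, 4 with total counts, at most 8 with a library left out, and 0 (edgeR, 31 at an unadjusted p under 0.05, DESeq2 not run), 2 and 4 without TG-High replicates 0, 1 and 2. In TG against NTG (44) they were 75 by DESeq2, 14 and 16 without NTG replicates 0 and 2, 108 without TG-Low replicate 2, and 26 and 22 without TG-High replicates 0 and 1. In TG-High against NTG (93) they were 54 and 52 without NTG replicates 0 and 2, and 37 and 44 without TG-High replicates 0 and 1. There they were at most 88 with a library left out, and 75 to 110 under the 6 other settings. The TG-High against TG-Low ratio differences changed sign without a library: miR-451a over miR-144-5p ranged from -0.15 to 0.040 (0.030 without TG-Low replicate 0, 0.040 without TG-High replicate 1), and the arm ratio from -0.16 to 0.035 (0.035 without TG-High replicate 0). The cause was not tested.

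Same-numbered libraries of different groups deviated together by more than 0.1 in 3 of 9 pairs (r from -0.17 to 0.23), and 4 of 9 libraries correlated best with their own number, so the numbers were not taken as pairs. With the replicate number as a block, no member's call changed (miR-144-5p -2.18, miR-144-3p -1.54 and miR-451a -1.83 in TG-High against NTG), and 75, 11, 6 and 35 rows passed in the 4 comparisons.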
